A study of Mus musculus with 10 samples.

Results

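The genes described here are 8 genes known from neurons as activity-induced effectors. They are those for the polo-like kinase Plk2, the scaffold protein Homer1, the cytoskeletal protein Arc, the pentraxin Nptx2, the prostaglandin synthase Ptgs2, the activin subunit Inhba and the granule proteins Scg2 and Vgf. They were taken by name, and all Ensembl transcripts annotated to them in the count files were used, which gave 10 transcripts among 22534 transcripts of 13184 genes. The names were 10 in all, of which Bdnf and Npas4 were not analysed here. Primary cortical cells of newborn (P0) FVB mice were grown for 7 days in vitro as a mixture of neurons and glia, and were either left untreated (cultures 1, 2 and 3) or depolarized by KCl at a final 55 mM for 3 h (cultures 4 and 5). Cycloheximide was added to every culture before lysis to hold ribosomes in place on the mRNA. From each lysate an RNAseq library measured transcript abundance and a ribosome footprinting (RF) library measured ribosomal occupancy, giving 10 libraries. The study left out KCl replicate 3 for its small library. Each transcript was therefore compared between 3 untreated and 2 KCl cultures, and its translation efficiency (TE) was the ratio of RF on the coding sequence (CDS) to RNAseq.

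Depolarization opens voltage-gated calcium channels in neurons, and calcium-activated kinases then switch on a program of gene transcription. Early genes of that program encode transcription factors such as Fos, while effector genes encode proteins that act at synapses or are secreted. CREB, which binds the palindrome TGACGTCA and its core TGACG, is a well-known factor of this response. Many mRNAs of the program are short-lived, and the AU-rich motif ATTTA in a 3′UTR is a well-known mark of unstable mRNAs.

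The promoter windows of these genes that hold the CREB core are printed because they are the DNA element classically linked to this response. RefSeq (GRCm38.p6) windows of 300 bases around the start site were found for 5 of the 8 genes (Scg2, Plk2, Homer1, Ptgs2 and Inhba). TGACG or its complement CGTCA stood in a window of 4 of these genes, against 20.8% of 32851 windows of all genes, and the palindrome TGACGTCA, which contains both, stood in those of Scg2 and Plk2, against 1.79% of all windows. The Inhba window held neither. Each line shows one motif in capitals, read 5′ to 3′ on the strand of the gene, for Scg2 at chr1:79440079-79440102 (minus strand), Plk2 at chr13:110394974-110394997 (plus strand), the 3 Homer1 sites at chr13:93303693-93303713, chr13:93303709-93303729 and chr13:93303735-93303755 (plus strand), and Ptgs2 at chr1:150100036-150100056 (plus strand).
Scg2: tgagccggTGACGTCAgcgtggaa
Plk2: gctcgccgTGACGTCAcgaggccc
Homer1 site 1: gcacaagcTGACGtgagcgga
Homer1 site 2: gcggagggTGACGtatgtgcg
Homer1 site 3: gagcgcgcTGACGttgctatt
Ptgs2: caccactaCGTCAcgtggagt
The palindromes lay at -68 and -62 bases from the start sites of Scg2 and Plk2, the Homer1 cores at -56, -40 and -14, and the Ptgs2 core 14 bases into the transcript. A second core in Plk2, not shown, began 22 bases into the transcript. A match is a description of the letters and not evidence that a factor bound there.

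The 3′UTRs differed in their AU-rich motifs. Ptgs2 carried 14 copies of ATTTA in 2445 bases (5.73 per kb), Homer1-207 2 copies in 345 bases (5.80 per kb) and Plk2 2 copies in 620 bases (3.23 per kb), against a median of 1.06 and an upper quartile of 2.42 per kb over 7194 measured transcripts. Inhba had the highest density (12.2 per kb), from 1 copy in 82 bases, while Arc had no copy in 1668 bases and Homer1-208, the other counted Homer1 transcript, none in 217. The 3′UTR of Homer1-207 drew 0 or 1 RNAseq read per library, so these data hardly show it expressed. The densest stretches of the GENCODE transcript sequences (GRCm38) are shown for the only 2 genes with at least 2 copies within 26 bases, Ptgs2 at chr1:150105798-150105823 and Homer1 at chr13:93386483-93386508, both on the plus strand, with ATTTA in capitals.
Ptgs2 3′UTR: ATTTATTTATTTAtgtgaagaATTTA
Homer1 3′UTR: ggtcctcggtcttttATTTAtATTTA
The longer motif TATTTAT occurred 6 times in Ptgs2 and 2 times each in Homer1 and Plk2, and at least once in 23.9% of the measured 3′UTRs.

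Levels are given as normalized CPM, reads scaled to the library's counted reads and its TMM factor, for RNAseq over all regions of a transcript and for RF over its CDS. Libraries held 3056286 to 3629959 reads (RNAseq) and 1463654 to 7719915 reads (RF), with untreated culture 3 and KCl culture 4 the shallowest in RF. A member had a median of 28.5 RNAseq reads per library, from 1 to 257, and a median of 55.5 CDS footprints, from 9 to 536, so several values below rest on few reads. Only Plk2 and Homer1 reached the level the study asked of a robustly expressed transcript, RNAseq and RF RPKM (CPM per kilobase) of at least 10 in 2 cultures, and both reached it in the KCl cultures and in 0 of the untreated cultures. For these 2 genes the fit on the 7258 transcripts past that limit is given. Since they entered it only through the cultures where they were high, the fit on all 22374 transcripts with at least 1 read is given beside it, and for the other 6 genes it is the one given. The same genes were called with either fit for these 2. The cultures were a mixture of cells, and markers of their types were read as summed normalized CPM. Summed markers of astrocytes ranged from 8760 to 9723 in untreated and from 7413 to 7777 in KCl RNAseq libraries, with 3 of 8 markers lower by the test, while 9 neuronal markers summed to 444 to 613 and to 561 to 564, with 0 of the 4 measured ones called by edgeR, and 1 at an unadjusted p under 0.05. No listed marker was at 0 in all RNAseq libraries. In RNAseq, KCl libraries lay below all untreated ones for the summed microglial (87.4 to 111 against 117 to 139), oligodendrocyte-lineage (1168 to 1170 against 1229 to 1321) and endothelial markers (14.9 to 17.3 against 18.5 to 25.5) and overlapped them for fibroblast markers (503 to 568 against 532 to 642), which in RF ranged from 685 to 813 in KCl and from 1082 to 1512 in untreated libraries. In RF the order was the opposite for astrocytes (14040 to 14410 with KCl against 13060 to 13430 untreated) and microglia (276 to 283 against 246 to 263). The part of such differences in the results was not tested, and in these bulk samples fewer cells of a type cannot be told apart from less RNA per cell. Which cell types the reads of the 8 genes came from cannot be told either.

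KCl raised the transcript abundance of 5 of the 8 genes, Ptgs2, Inhba, Plk2, Scg2 and Homer1, at an adjusted p under 0.05 (edgeR quasi-likelihood test, Benjamini-Hochberg), with log2 fold changes from 1.32 to 3.15. Arc, Nptx2 and Vgf did not pass. Among all transcripts 10.1% were called higher without a filter and 17.5% past the RPKM limit. Both KCl cultures lay above all untreated cultures for 7 genes, where 18.1% of all transcripts did so, and below them for Vgf, where 24.2% did. Ribosomal occupancy rose for 5 genes as well, Ptgs2, Plk2, Inhba, Scg2 and Vgf, against 12.6% of transcripts without a filter and 20.9% past the RPKM limit. The call for Vgf depended on the processing. Both KCl cultures lay above all untreated ones in RF for 6 genes, where 17.9% of all transcripts did. TE passed the test for Vgf only, with 0.469% of transcripts called higher and 1.23% called lower without a filter. TE values of both KCl cultures lay below all untreated ones for 3 genes (16.9% of 18374 transcripts with a TE in every culture) and above them for Vgf (11.9%). Inhba, among these 3, had only 7, 1 and 1 RNAseq reads untreated.

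**Figure D1:**
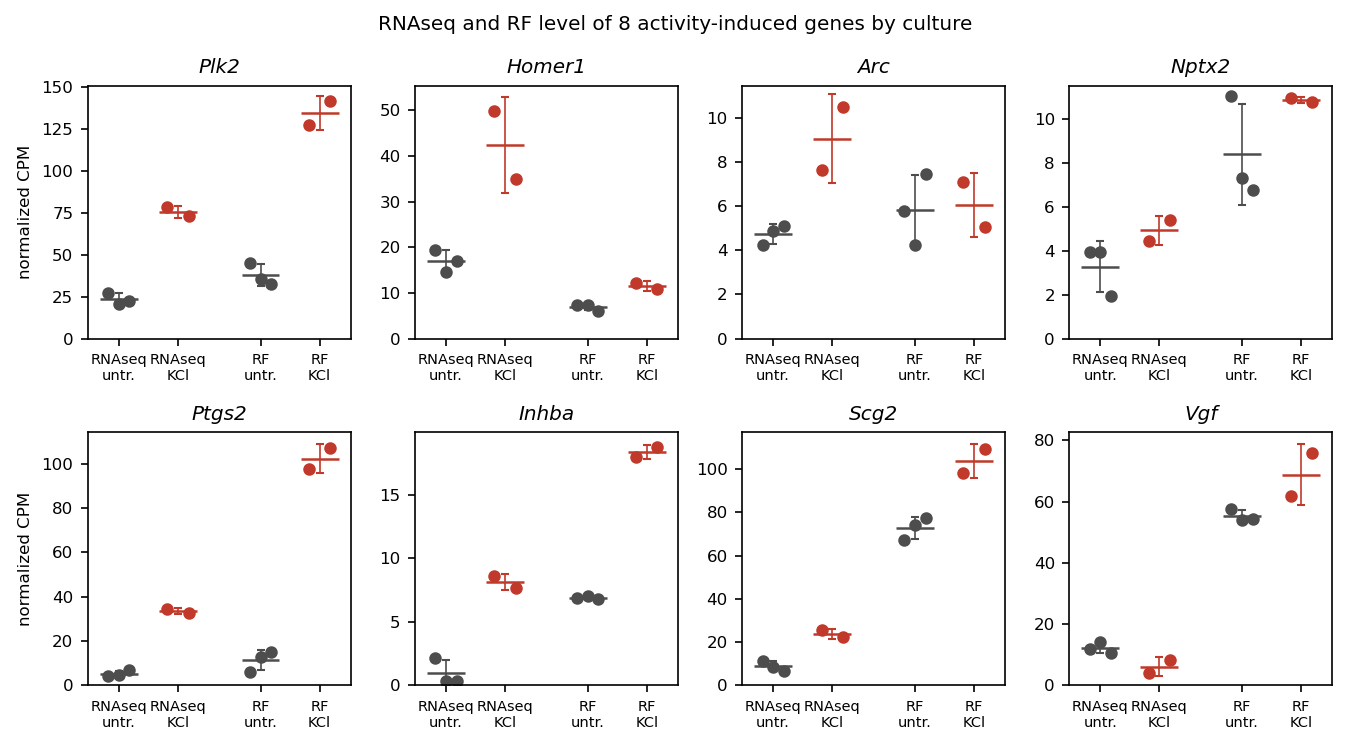
Normalized CPM of the 8 genes in each culture, with RNAseq (all regions) on the left and RF (CDS) on the right of each panel, on a linear axis from 0. Grey points are untreated and red points KCl cultures, lines are means and bars SD (n = 3 and n = 2), and the groups are apart in both assays for Plk2, Homer1, Ptgs2, Inhba, Scg2 and, in opposite directions, Vgf.

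Ptgs2 (Ptgs2-201, chr1:150100031-150108227, 10 exons) encodes cyclooxygenase 2, which makes the precursor of prostaglandins. RNAseq gave 3.93, 4.55 and 6.70 normalized CPM untreated and 34.3 and 32.4 with KCl. RF gave 6.02, 12.7 and 14.9 untreated and 97.8 and 107 with KCl. No value of one group came near the other in either assay, and the means rose 6.59-fold in RNAseq and 9.13-fold in RF. The fitted changes were 2.78 ± 0.29 (log2, SE) in RNAseq and 3.44 ± 0.17 in RF, the largest RF change of the 8 genes, with edgeR adjusted p-values of 2.86e-19 and 6.60e-84. With edgeR's own filter on low counts the RF change was 3.44 as well, at an edgeR adjusted p of 2.70e-10. DESeq2 gave 3.32 ± 0.48 in RF (DESeq2 adjusted p = 1.84e-10). Without untreated culture 1 the RF change was 3.02, and without untreated culture 2 it was 3.83. TE was 5.401 ± 1.59 (SD, n = 3) untreated and 7.47 ± 0.73 (n = 2) with KCl, values that overlapped, and the TE change of 0.52 ± 0.37 did not pass (edgeR adjusted p = 0.699). RNAseq reads rose in the CDS, from 9, 12 and 15 to 67 and 63, and in the 3′UTR, from 4, 3 and 6 to 39 and 47.

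Inhba (Inhba-202, chr13:16014475-16027211, 3 exons) encodes the inhibin βA subunit, from which the growth factor activin A is assembled. Untreated RNAseq libraries held 7, 1 and 1 of its reads, and each KCl library held 27. RF normalized CPM was 6.90, 7.02 and 6.78 untreated and 18.02 and 18.8 with KCl. The untreated SD of 0.12 around 6.90 was the smallest of the 8 genes in RF. These untreated values rest on 55, 48 and 10 CDS footprints, so their closeness says little about the gene. The 2 groups were apart in both assays. RNAseq rose by 3.15 ± 0.58 (log2, SE; edgeR adjusted p = 1.63e-06) and RF by 1.48 ± 0.28 (edgeR adjusted p = 1.28e-06). The RNAseq change was 4.59 without untreated culture 1 (edgeR adjusted p = 7.18e-08) and from 2.76 to 3.23 without any other culture. The TE change was -1.64 ± 0.64 and did not pass (edgeR adjusted p = 0.225). Without untreated culture 1, where 7 of the 9 untreated RNAseq reads were found, the TE change was -3.10 at an edgeR adjusted p of 0.0359. TE of the single untreated cultures 2 and 3 rests on 1 RNAseq read each and is not given as a mean.

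Plk2 (Plk2-201, chr13:110395046-110400844, 14 exons) is a kinase known to act in homeostatic weakening of synapses after strong activity. RNAseq gave 27.2, 20.6 and 22.4 normalized CPM untreated and 78.2 and 73.0 with KCl. RF gave 45.2, 35.4 and 32.6 untreated and 127 and 141 with KCl. In both assays both KCl cultures lay far above every untreated culture. The changes of 1.69 ± 0.19 in RNAseq and 1.79 ± 0.14 in RF (log2, SE) had edgeR adjusted p-values of 1.03e-09 and 2.17e-11. In the fit on all transcripts they were 1.755 and 1.87, with edgeR adjusted p-values of 5.98e-18 and 1.12e-41. TE stayed between 1.96 and 2.396 untreated and between 2.21 and 2.60 with KCl. Its change was 0.14 ± 0.25 (edgeR adjusted p = 0.851), the smallest in size of the 8 genes. Over the 10 libraries, the gene whose log2 values moved most like those of Plk2 was Arl4a, a small GTPase, at a Euclidean distance of 0.47 against a median of 2.81 over the transcripts compared.

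Homer1 was counted on 2 transcripts, Homer1-207 (chr13:93303757-93386744) and Homer1-208 (chr13:93305278-93402306), each of 6 exons. HOMER1 links metabotropic glutamate receptors to the postsynaptic scaffold, and its short, activity-induced forms lack the part through which long forms join. Both counted forms have short coding sequences, of 582 and 576 bases, and they share 527 coding bases. Annotated long forms of 1062 to 1110 coding bases, not analysed here, share 522 to 563 bases with the CDS of Homer1-207. Other annotated short forms of 558, 609 and 699 coding bases, not counted either, each share 527 bases with it. In the 3′UTR of Homer1-208, 140 bases are coding sequence in the long forms. Reads on shared bases cannot be told apart between forms, and the 2 transcripts are not independent. The 3′UTR of Homer1-207 drew 0 or 1 RNAseq read per library. Which short or long form the counts below come from therefore cannot be told. Homer1-207 drew more RNAseq reads than Homer1-208, but through its 5′UTR, as their CDS reads were nearly the same. Per length Homer1-208 had the higher mean RNAseq RPKM, 9.365 against 7.002 untreated and 20.21 against 16.69 with KCl. Neither form can therefore be called the more abundant. RNAseq of Homer1-207 was 19.4, 14.6 and 16.9 normalized CPM untreated and 49.9 and 34.9 with KCl. Its RF was 7.40, 7.32 and 6.11 untreated and 12.2 and 10.8 with KCl. Groups were apart in both assays, yet the RF change of 0.65 ± 0.29 (log2, SE) missed the threshold (edgeR adjusted p = 0.0732), while RNAseq rose by 1.32 ± 0.22 (edgeR adjusted p = 9.64e-06). In the fit on all transcripts the changes were 0.73 (edgeR adjusted p = 0.0727) in RF and 1.38 (edgeR adjusted p = 3.39e-08) in RNAseq. Homer1-208 gave 1.16 ± 0.32 in RNAseq (edgeR adjusted p = 0.00425), a call lost without KCl culture 4 (0.70, edgeR adjusted p = 0.259), and 0.69 ± 0.29 in RF (edgeR adjusted p = 0.0566). TE of Homer1-207 was 1.78 ± 0.35 untreated and 1.16 ± 0.18 with KCl, apart by culture, and its change of -0.60 ± 0.39 did not pass (edgeR adjusted p = 0.441). Magoh, a subunit of the exon junction complex, was nearest to Homer1 over the 10 libraries, at a distance of 0.43 against a median of 1.76.

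Footprints on the 5′UTR of Homer1-207 rose more clearly than those on its CDS. This 5′UTR has 1541 bases and 6 upstream ATG, where the median measured transcript has 173.5 bases and 1 ATG. It held 114, 57 and 27 footprints in the untreated libraries and 68 and 142 in the KCl libraries, or 14.3, 8.34 and 18.3 normalized CPM against 43.8 and 47.7. Every untreated culture lay below both KCl cultures. The 5′UTR change was 1.66 ± 0.24 in RF (log2, SE; edgeR adjusted p = 9.99e-05, with 5.44% of 5868 tested 5′UTRs called higher) and 1.37 ± 0.29 in RNAseq (edgeR adjusted p = 0.000186, with 4.99% of 1262 called higher). Per kilobase, 5′UTR footprints went from 5.41 to 11.9 normalized CPM untreated to 28.4 and 31.0 with KCl, and CDS footprints from 10.5 to 12.7 untreated to 21.01 and 18.5. The density on the 5′UTR was above that on the CDS in both KCl cultures and in untreated culture 3, and below it in untreated cultures 1 and 2. The difference between the 5′UTR change and the CDS change was not tested. Plk2 was the other member whose 5′UTR was called in RF, at 1.47 ± 0.45 (edgeR adjusted p = 0.0428), a call lost with other scaling (0.0658) and without a filter (0.104).

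Scg2 (Scg2-201, chr1:79434669-79440120, 2 exons) encodes secretogranin II, a granin of dense-core vesicles and the precursor of secretoneurin. RNAseq gave 11.2, 8.50 and 6.39 normalized CPM untreated and 25.4 and 22.2 with KCl. RF gave 67.2, 74.0 and 77.3 untreated and 98.5 and 109 with KCl. The groups were apart in both, and RNAseq rose by more, 1.51 ± 0.28 (log2, SE; edgeR adjusted p = 3.21e-06), than RF, 0.61 ± 0.13 (edgeR adjusted p = 3.40e-05). Without KCl culture 5 the RF change was 0.52 at an edgeR adjusted p of 0.0513. TE was 8.30, 12.1 and 16.2 untreated and 5.22 and 6.60 with KCl. All KCl values lay below the untreated ones, and the change of -0.90 ± 0.29 did not pass (edgeR adjusted p = 0.0942) except without untreated culture 1 (-1.16, edgeR adjusted p = 0.0166).

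Vgf (Vgf-201, chr5:137030295-137033351, 2 exons) encodes a nerve growth factor-inducible granule protein cut into neuropeptides. It was the only one of the 8 genes with a lower mean RNAseq level under KCl, at 11.8, 13.96 and 10.5 normalized CPM untreated against 3.82 and 8.24 with KCl. RF went the other way, from 57.6, 54.1 and 54.3 to 61.8 and 75.9. The KCl RNAseq values rest on 12 and 29 reads. The RNAseq change of -0.92 ± 0.36 (log2, SE) missed the threshold (edgeR adjusted p = 0.0555) and was -0.48 without KCl culture 4 (edgeR adjusted p = 0.611) and -1.60 without KCl culture 5 (edgeR adjusted p = 0.0289). The RF change of 0.41 ± 0.15 passed it (edgeR adjusted p = 0.0258) but not with DESeq2 (0.102) or library totals (0.289). TE was 6.84, 5.46 and 6.97 untreated and 22.2 and 12.5 with KCl, and its change of 1.33 ± 0.35 was called (edgeR adjusted p = 0.0159). This TE call was lost without untreated culture 2 (0.0660), without KCl culture 4 (0.511), without KCl culture 5 (0.140), with DESeq2 (0.0829) and with RNAseq reads of the CDS alone (0.418), with TE changes from 1.02 to 1.84.

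**Figure D2:**
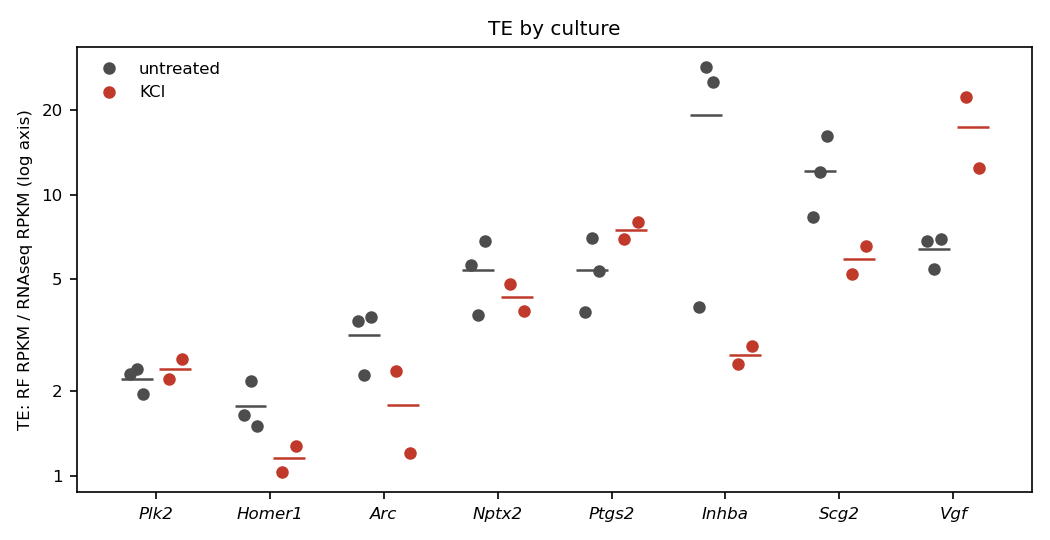
TE, the RF RPKM of the CDS over the RNAseq RPKM of the transcript, in each culture on a log axis, with untreated cultures in grey, KCl cultures in red and lines at the means. Plk2 and Ptgs2 overlap between groups, Homer1, Inhba and Scg2 lie lower with KCl, and Vgf lies higher, while the upper 2 untreated Inhba points each rest on 1 RNAseq read.

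Arc (Arc-201, chr15:74669083-74672568, 3 exons) encodes a protein of synapses and dendrites that promotes removal of AMPA receptors from the membrane. RNAseq gave 4.24, 4.85 and 5.11 normalized CPM untreated and 7.63 and 10.5 with KCl. RF gave 5.77, 4.24 and 7.46 untreated and 7.08 and 5.04 with KCl. The groups were apart in RNAseq and overlapped in RF. The RNAseq change was 1.00 ± 0.40 (log2, SE) and missed the threshold (edgeR adjusted p = 0.0613). It passed with all 10 libraries in one fit (1.01, edgeR adjusted p = 0.039). It did not pass with DESeq2 (1.01, DESeq2 adjusted p = 0.19) or library totals (0.87, edgeR adjusted p = 0.115). From CDS reads alone the change was -0.14, and without KCl culture 5 it was 0.74. The RF change was 0.18 ± 0.40 (edgeR adjusted p = 0.841). The second counted Arc transcript carried the same CDS reads in each library and is not a separate measurement.

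Most RNAseq reads of Arc were counted on its 3′UTR, 10, 13 and 9 untreated and 17 and 32 with KCl, while the CDS held 4, 3 and 7 reads untreated and 6 and 2 with KCl. The 5′UTR and the unnamed region together held 0 reads in the untreated libraries and 1 and 3 with KCl. The 3′UTR change was 1.14 ± 0.46 and did not pass (edgeR adjusted p = 0.0588), and 11.7% of 13027 tested 3′UTRs were called higher. Scg2 had 3′UTR reads from 7, 2 and 4 to 34 and 26 and CDS reads from 27, 25 and 14 to 40 and 49. Its 3′UTR change was 2.72 ± 0.52 (edgeR adjusted p = 1.12e-05). In Ptgs2 and Plk2 the 3′UTR changes were 3.23 ± 0.47 and 1.38 ± 0.30 (edgeR adjusted p = 2.66e-09 and 8.74e-05). Differences between regions were not tested.

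**Figure D3:**
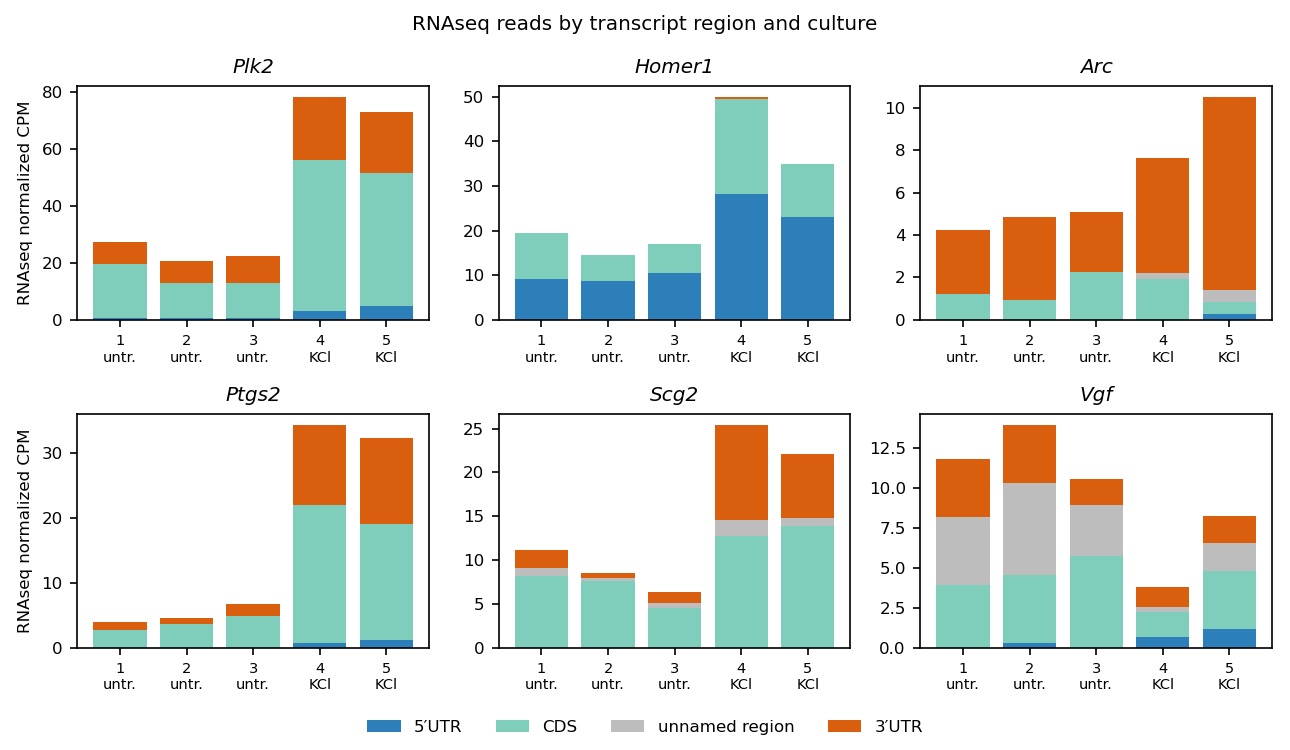
RNAseq normalized CPM of 6 genes in each culture, stacked by the transcript region the reads were counted on, with untreated cultures 1 to 3 and KCl cultures 4 and 5 in each panel and an axis from 0. The 3′UTR part of Arc and Scg2 is taller in both KCl cultures, the 5′UTR makes up a large part of Homer1, and Vgf has reads in the unnamed region.

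Nptx2 (Nptx2-201, chr5:144545902-144557478, 5 exons) encodes a secreted pentraxin that gathers AMPA receptors at excitatory synapses. Its RNAseq level was 3.93, 3.94 and 1.92 normalized CPM untreated and 4.45 and 5.396 with KCl, from 6 to 19 reads per library. In RF it was 11.04, 7.32 and 6.78 untreated and 10.9 and 10.8 with KCl. The RNAseq groups were apart by a small gap and the RF groups overlapped. Neither the RNAseq change of 0.65 ± 0.51 (log2, SE; edgeR adjusted p = 0.438) nor the RF change of 0.36 ± 0.30 (edgeR adjusted p = 0.465) passed.

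Per length, the order of the genes differed between the assays and with KCl. In untreated RNAseq libraries the mean RPKM fell from Plk2 (8.52) and Homer1 (7.002) over Vgf (4.83) and Scg2 (3.52) to Arc (1.58), Nptx2 (1.31), Ptgs2 (1.16) and Inhba (0.607). Plk2 and Homer1 overlapped between cultures, as did Vgf and Scg2 and the neighbours among the last 4. In untreated RF libraries Scg2 (40.4) and Vgf (30.7) led, apart from each other and from Plk2 (18.9) and Homer1 (12.3), and Nptx2, Ptgs2, Inhba and Arc lay between 6.68 and 5.01 on average with overlapping cultures. With KCl the RF order was Plk2 (63.0), Ptgs2 (54.2), Scg2 (53.8), Vgf (35.6), Homer1 (19.0), Inhba (13.9), Nptx2 (8.07) and Arc (4.89), with only Ptgs2 and Scg2 overlapping among neighbours. Ptgs2 moved from among the 4 lowest to a level that overlapped Scg2.

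**Figure D4:**
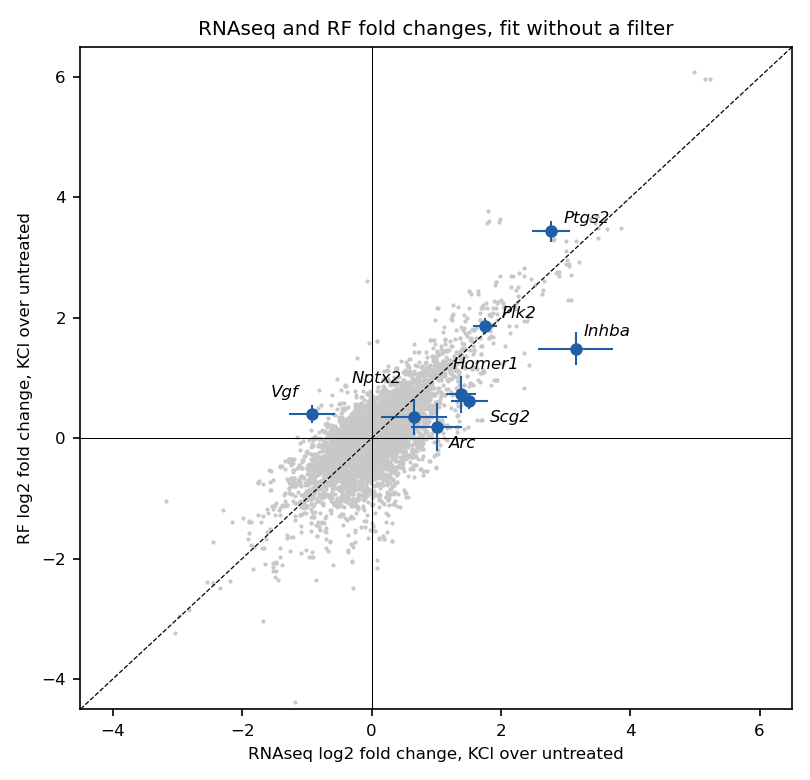
RNAseq against RF log2 fold change (KCl over untreated) in the fit without an RPKM limit, with the 8 genes in blue (bars are SE) and transcripts past the limit in grey, and a dashed line of equal change. Plk2 lies on the line, Ptgs2 above it, Inhba, Scg2, Homer1 and Arc below it, and Vgf in the quadrant of lower RNAseq and higher RF.

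The other genes of the pathways these effectors belong to were read from lists by gene, each through its most abundant measured transcript, beside all 4365 measured genes, of which 16.9% were called higher and 16.1% lower in RNAseq and 20.8% and 19.3% in RF, with median log2 changes of -0.02 and -0.01. Of 11 activity-induced transcription factors, 10 rose in RNAseq (median 1.78) and 10 in RF (median 1.99), where Jund fell. Nr4a2 rose by 5.16 ± 0.21 in RNAseq and 5.90 ± 0.21 in RF, Fosl2 by 2.94 ± 0.14 and 3.04 ± 0.13, Crem by 2.94 ± 0.21 and 2.83 ± 0.18, and Egr2 by 2.84 ± 0.25 and 2.61 ± 0.27 (log2, SE). Of 19 other activity-regulated effector genes, 16 rose in RNAseq (median 1.26) and 15 in RF (median 1.25). The nuclear protein gene Csrnp1 rose by 3.43 ± 0.22 and 3.25 ± 0.20, the kinase gene Sik1 by 2.10 ± 0.20 and 2.62 ± 0.16, and the phosphatase gene Dusp1 by 2.09 ± 0.17 and 2.44 ± 0.18. These lists hold genes already known as activity-induced, so their direction is no independent result. The RPKM limit could also be met in the KCl cultures alone, which can lift the counts and medians of genes that rise. Nr4a2 had mean normalized CPM of 4.92 in RNAseq and 3.32 in RF untreated, against 178 and 156 with KCl. For the lists no fit without a filter is given.

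Partner genes of single members were mostly not called. Among 10 measured genes of secretory granules, the group of Scg2 and Vgf, Syt4, a vesicle synaptotagmin, rose by 2.37 ± 0.21 in RNAseq (edgeR adjusted p = 4.17e-12) and 1.14 ± 0.12 in RF with a TE change of -1.24 ± 0.25 (edgeR adjusted p = 0.000105), Chgb, another granin, fell by 0.49 on the log2 scale in RNAseq (edgeR adjusted p = 0.0352), and the other 8 were not called in RNAseq. Pam, which amidates neuropeptides, fell by 0.54 on the log2 scale in RF (edgeR adjusted p = 0.000552), with a TE change of -0.76 ± 0.24 (edgeR adjusted p = 0.0268). Of 6 measured activin pathway genes, Smad7, an inhibitor of the pathway, rose by 1.62 ± 0.21 in RNAseq (edgeR adjusted p = 4.39e-08) and 1.46 ± 0.29 in RF, and Smad4, the shared mediator, by 0.49 ± 0.15 (edgeR adjusted p = 0.0108) and 0.34 ± 0.13. Of 7 measured AMPA receptor trafficking genes, the endocytic genes Picalm (0.69 ± 0.15, edgeR adjusted p = 0.000248) and Sh3gl1 (0.46 ± 0.16, edgeR adjusted p = 0.0256) rose in RNAseq. Nptxr, the membrane-bound relative of Nptx2, rose in RF by 0.70 ± 0.25 (edgeR adjusted p = 0.03), with a TE change of 1.10 ± 0.30 (edgeR adjusted p = 0.0103). In the Plk2 list, Rapgef2, a guanine exchange factor that Plk2 phosphorylates, rose by 1.63 ± 0.15 in RNAseq (edgeR adjusted p = 1.48e-11) and by 1.32 ± 0.12 in RF (edgeR adjusted p = 1.16e-09).

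The remaining lists held few measured genes. Of 2 genes around HOMER, Dlg4, the scaffold PSD-95, rose by 0.62 ± 0.16 in RNAseq (edgeR adjusted p = 0.00267) and stood at -0.18 ± 0.20 in RF. Of 3 relatives of Npas4, Hif1a fell by 0.45 on the log2 scale in RNAseq (edgeR adjusted p = 0.0463) and Arnt2 fell by 0.45 on the log2 scale in RF (edgeR adjusted p = 0.00379). Of 4 neurotrophin pathway genes, 0 were called in RNAseq by edgeR and 1, Sort1, had an unadjusted p under 0.05 (0.0295). In RF Furin, which cleaves neurotrophin precursors, fell by 1.18 on the log2 scale (edgeR adjusted p = 0.000370). Of 2 prostaglandin genes, 0 were called in RNAseq by edgeR, with 0 at an unadjusted p under 0.05, and Ptgds, a prostaglandin D synthase, rose by 0.24 ± 0.08 in RF (edgeR adjusted p = 0.0162). Jund, Pam, Nptxr, Arnt2, Sort1, Furin and Ptgds were named after their values were seen.

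**Figure D5:**
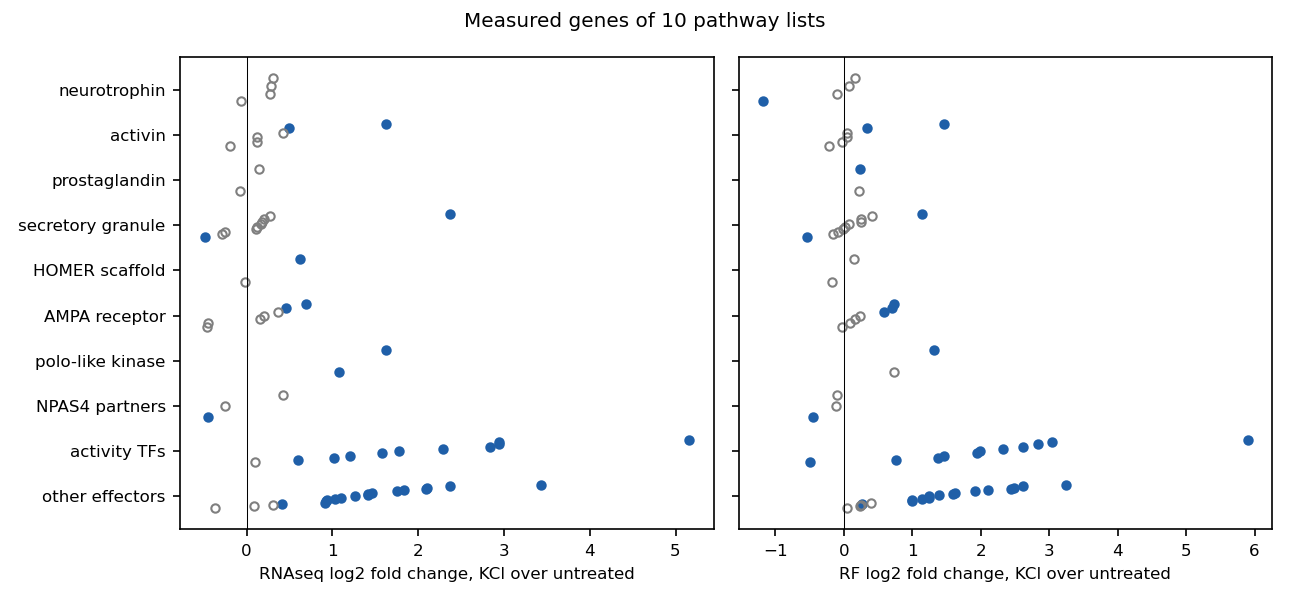
RNAseq (left) and RF (right) log2 fold changes, KCl over untreated, of each measured gene of 10 lists, with filled points for an adjusted p under 0.05 and open points for the others. The transcription factors and other effectors lie mostly to the right of 0, and the remaining lists lie mostly near 0.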

How the data were processed

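RNAseq and RF libraries of 3 untreated and 2 KCl cultures were grouped by their labels. The authors trimmed reads (Trimmomatic 0.32), removed rRNA reads (STAR 2.3.1z8), aligned the rest to the mm10 transcriptome with degenerate sequences removed (Bowtie2 2.2.2), kept multi-mapped reads, and deposited unnormalized counts of reads per transcript region (bedtools 2.20.1). The RNAseq kit does not mark strand, so overlapping antisense RNA would be counted too. Regions carry letters. By the relation of their read shares to annotated lengths, a was taken as the 5′UTR, b as the CDS and d as the 3′UTR, although c had been planned as the 3′UTR, and c stays unnamed. For TE the study dropped positions near start and stop codons, which cannot be repeated on counts per region.

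Counts were compared by edgeR 4.0.16 in R 4.3.3 (quasi-likelihood, robust dispersions, TMM computed separately for RNAseq and RF), and p-values over all transcripts tested were adjusted by Benjamini-Hochberg. For TE, the assay by treatment term was tested in a model blocked by culture, since both libraries of a culture came from the same lysate. Deviations of the 2 libraries of a culture from their group means correlated at -0.0748 to 0.0682 over 7258 transcripts. The SE is the absolute log2 change over the square root of F. Region fits used edgeR's filterByExpr within the region. Normalized CPM use the TMM factors of the 7258 transcripts. With library totals in place of TMM, the median log2 change of all transcripts was -0.139 (RNAseq) and -0.169 (RF) without a filter. Whether the cultures came from separate litters is not given in the sources used here, so p-values speak of these cultures alone. The spread behind them is partly shared over the transcripts of a fit, so they depend on which transcripts were fitted. For Plk2 in RF the edgeR adjusted p was 2.17e-11 past the RPKM limit and 1.12e-41 without a filter. The scripts were tested on simulated data.

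The members and gene lists were chosen with earlier results of these data known. Members are named by the transcript with the highest mean RNAseq count, list genes as up to 4 per list with the largest RNAseq change at an adjusted p under 0.05, and neighbours by the smallest Euclidean distance of log2(normalized CPM + 1), centred within each assay, over 10 libraries. Marker lists covered neurons, astrocytes, microglia, oligodendrocyte lineage, endothelial cells and fibroblasts. Alternatives were DESeq2 1.42.0, library totals, other filters, counts summed per gene, other regions, all libraries in one fit, no block, and each culture left out. Figures and summaries used Python 3.11.15, pandas 2.3.3 and matplotlib 3.10.9.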

Additional observations from a re-analysis of the deposited data

How the results depend on the processing

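Of 296 recomputed log2 fold changes of the 8 genes, 271 kept their side of the threshold, 16 lost their call, 9 gained one and 0 called ones changed sign. In RNAseq 5 genes were called, and 5 to 7 under the alternatives, where Ptgs2, Inhba, Plk2, Scg2 and Homer1 (by Homer1-207 or its summed counts) were always called, and Vgf or Arc joined under some. The RNAseq change of Vgf ranged from -1.60 to -0.48. Arc was called with all 10 libraries in one fit (edgeR adjusted p = 0.039) and with counts summed per gene (0.0131), where the same reads count on both of its transcripts. In the other 9 alternatives Arc was not called, and over all of them its change ranged from -0.14 to 1.22. In RF 5 genes were called, and 3 to 5 with a culture left out, the 3 (Inhba, Ptgs2 and Plk2) without KCl culture 5. Homer1 was called in RF with reads of all regions (1.54, edgeR adjusted p = 4.87e-08) and with counts summed per gene (0.0215), where reads on shared coding bases are counted 2 times. Vgf lost its RF call in 7 alternatives. In TE 1 gene was called, against 0 with DESeq2, which gave an adjusted p for 4 of the genes, 0 with RNAseq reads of the CDS alone, and 0 to 3 with a culture left out (3 without untreated culture 1, 0 without untreated culture 2, KCl culture 4 or KCl culture 5). Without the replicate block TE gave 1 call, Vgf, as with it, and the block changed no call. In RF of the 5′UTR, 2 genes were called, and 1 with library totals and 1 without a filter, and in RNAseq of the 5′UTR 2 were called and 1 without a filter. The causes of these changes were not tested. Leaving out a KCl culture leaves 1, which is then assumed to vary like the untreated cultures.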

Other observations

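Footprints on the annotated 3′UTR of Homer1-208 numbered 12, 11 and 2 in the untreated RF libraries and 2 and 2 in the KCl libraries, or 1.51, 1.61 and 1.36 normalized CPM against 1.29 and 0.672. Of the 217 bases of this 3′UTR, 140 are coding sequence in the long forms of Homer1, which were not analysed here. The CDS of the same transcript went from 7.28, 7.32 and 6.11 to 12.2 and 11.1 normalized CPM. No test was run on the 3′UTR footprints, which come from few reads. RNAseq placed 0 or 1 read per library on this 3′UTR.

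The 3′UTR of Homer1-207 drew 1 RNAseq read in all and no footprint, although it has 345 bases and its CDS drew 19 to 67 RNAseq reads per library.

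RNAseq reads of Vgf on the region that has no name were 14, 19 and 10 in the untreated libraries and 1 and 6 in the KCl libraries, while CDS reads were 13, 14 and 18 against 5 and 13.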
